A study of Drosophila melanogaster with 16 samples.

Results

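Broad H3K27ac domains are stretches of chromatin in the fly head where acetylation of histone H3 at lysine 27 (H3K27ac) was called as a single wide peak. A domain was any H3K27ac peak at least 1000 bp wide at day 10 or day 50 of adult life, on chromosomes 2L, 2R, 3L, 3R, 4 or X, with overlapping wide peaks of the 2 ages merged. There were 703 such domains. Merging all H3K27ac peaks of the 2 ages on those chromosomes gave 30823 regions, and the domains lay in 702 of them. The width of H3K27ac peaks chose the members, so their H3K27ac values are a description. Their H3K4me1 coverage, their place relative to genes, their chromosome and the genes they lie in were not used to choose them.

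The heads came from male w1118 flies (*Drosophila melanogaster*, a white-eyed laboratory strain) kept at 25 °C and taken at day 10 or day 50. Chromatin from 50 mg of heads per replicate was cut with micrococcal nuclease, which frees nucleosomes, and precipitated with an antibody to H3K27ac or to monomethylated lysine 4 of the same histone (H3K4me1). Each mark and age had 2 ChIP and 2 input samples, 16 in all and 8 groups. The values come from 4 peak lists, in which the replicates of an age were called jointly for each mark. Replicate spread therefore cannot be measured, age cannot be tested, and the read depth behind the lists is unknown. Every difference between days below is a difference between 2 lists. Shares carry exact (Clopper-Pearson) 95% intervals, which cover counting error only.

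H3K27ac is laid down by the acetyltransferase CBP (nejire in flies) at active promoters and enhancers, on the residue that Polycomb complexes methylate at silent genes. H3K4me1 marks enhancers and the flanks and bodies of active genes. In mammals, long clusters of acetylated enhancers are known to lie at genes that define a cell type. A fly head holds brain, eyes, glia, fat body and muscle, so a peak there averages over many cell types, and fewer cells carrying a mark cannot be told apart from less of it per cell.

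As a check of the tissue label, an H3K27ac peak lay within 500 bp of an end of 7 of 7 neuron markers at both days and of 7 of 8 fat body markers at both days. That held for 53.9% of all protein-coding genes at day 10 and 56.3% at day 50. Photoreceptor markers had such a peak at 4 of 13 genes at day 10 and 2 of 13 at day 50. In that list ninaE, ninaC, Arr1, Arr2, chp, Rh3, Rh4 and Rh6 had none at either day, although several encode abundant proteins of the eye, such as rhodopsins and arrestins. Glial markers had 3 of 8 at both days, hemocyte markers 1 and 2 of 5, muscle markers 1 and 2 of 7 and testis markers 3 and 2 of 8.

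The domains made up a small share of the peaks. At day 10, 551 of 26692 H3K27ac peaks (2.06%) were broad and held 8.26% of the bases under peaks. At day 50, 513 of 25432 peaks (2.02%) were broad and held 7.85%. The median width of broad peaks was 1198 bp at day 10 and 1197 bp at day 50, against 275 and 280 bp for the remaining peaks. Widths ran smoothly through the minimum: 263 peaks at day 10 and 246 at day 50 were at least 900 and under 1000 bp wide, and 155 and 151 at least 1000 and under 1100 bp. Just inside it at day 10 lay peaks of 1001 bp at CG31808 and at scrib, a cell polarity gene, and of 1002 bp at CG1888. Just outside it lay peaks of 998 bp at the arginine kinase gene Argk1, 997 bp at Pli and 996 bp at puc. At day 50 peaks of 1000 bp at CG17982 and Toll-7 and of 1002 bp at Snx27 were inside, and peaks of 999 bp at prage, 998 bp at CG10365 and 998 bp at CG1888 were outside.

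Breadth was not the same as height. The authors' fold enrichment had a median of 3.50 for broad peaks at day 10 and 3.75 at day 50, against 2.47 and 2.61 for the others. Of the 551 day 10 peaks of highest fold, 106 were broad, and among the 513 of highest fold at day 50, 80 were. Broad peaks were thus more frequent there than among all peaks, though most of these peaks were narrower. The highest fold in a domain at day 10, 7.09, was in a domain at Sin3A, which encodes a corepressor scaffold for histone deacetylases, and that peak was itself narrower than 1000 bp. The next values at day 10 were 6.87 at puc, a phosphatase that restrains JNK signalling, 6.37 at CG17896, 6.26 in a domain at 2R:10553036-10554777 that lies outside the coding genes of the table, and 6.21 at the zinc finger gene crol. At day 50 the highest were 7.17 at CG1888, 7.08 at lncRNA:CR45054, 6.91 at Kr-h1, a zinc finger factor induced by juvenile hormone, 6.56 at kay, the fly Fos, and 6.46 at HmgZ and HmgD, which encode DNA-bending HMG-box proteins.

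The 703 domains spanned 986 kb in total, with a median of 1208 bp and a range of 1001 to 6772 bp (BDGP6 coordinates throughout). The longest, at 3L:22833855-22840626, covered the end of the zinc finger gene jim and its neighbours CG45428 and CG11226. It had 6443 bp under H3K27ac in 3 peaks at day 10 and 6738 bp in 1 peak at day 50. Second was a stretch of 5885 bp at 3R:10079497-10085381, over lncRNA:CR45054, with 5780 bp under peaks at day 10 and 5565 bp at day 50. The next was 2L:2749239-2754419 at Pgk, which encodes the glycolytic enzyme phosphoglycerate kinase, and Bacc, with 5149 and 5095 bp.

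The next longest domains lay at genes of several kinds. EcR, the receptor of the steroid hormone ecdysone, held a domain of 4489 bp (4418 bp under peaks at day 10, 4344 bp at day 50). A domain of 4352 bp in ps (pasilla, a splicing factor related to mammalian Nova) had 4333 and 3969 bp. The transcription factor gene Glut4EF held one of 4331 bp, with 4075 bp at both days. The adaptor gene 14-3-3epsilon had 4261 and 4154 bp, CG1888 4154 and 4139 bp, and alphaTub84B, which encodes an alpha-tubulin, 3615 and 3876 bp. The axon connection gene fax had 3504 and 3602 bp, the transcriptional coregulator gene tara 3375 and 3530 bp, and the cyclin gene CycG 3394 and 3159 bp. All 12 longest domains were broad at both days.

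In the lists as deposited, the bases of the domains under H3K27ac were close at the 2 ages. H3K27ac peaks covered 929.7 kb of them at day 10 (94.3%) and 920.8 kb at day 50 (93.4%). Both days had a broad peak in 349 domains, day 10 only in 197 and day 50 only in 157. More bases were covered at day 50 in 315 domains, fewer in 384, and 4 were equal, with a median difference of 15 bp fewer at day 50. At least 1.5 times as many bases at day 50 were found in 26 domains (3.70%), beside 22.0% of all merged H3K27ac regions, and at least 1.5 times fewer in 24 (3.41%), beside 26.1%. Since width chose the domains, nothing is read from the distance to those shares. The closeness and the order of the ages depended on the peak threshold. With H3K27ac peaks limited to a -log10 q of at least 20, H3K27ac covered 69.8% of 357 domains at day 10 and 84.5% at day 50, 84 were broad at day 10 only and 133 at day 50 only, and 55.5% had more bases at day 50, against 44.8% in the full lists.

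**Figure D1:**
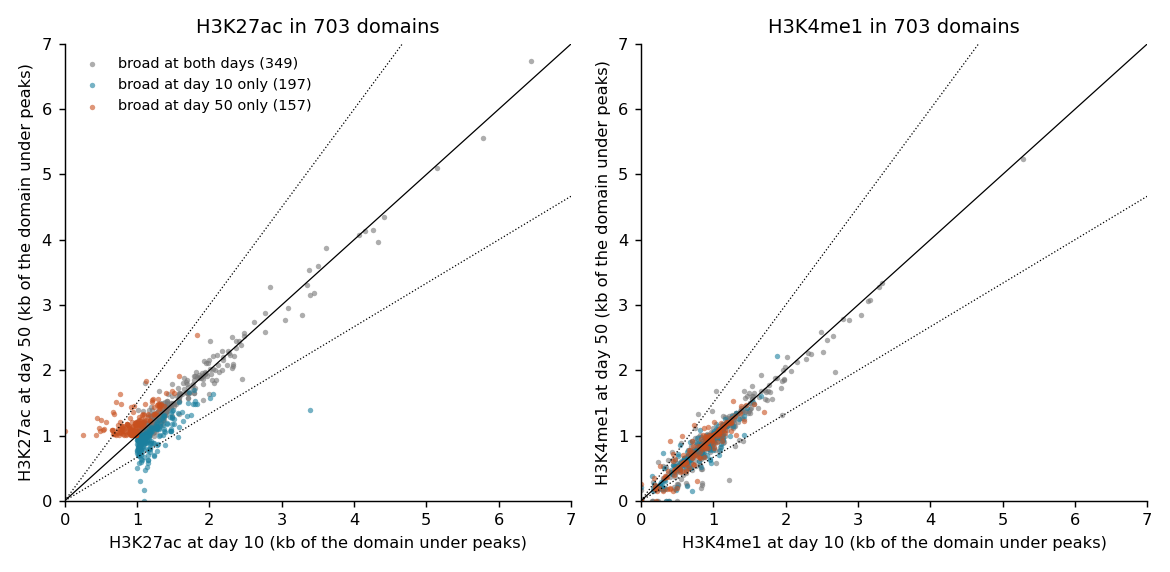
Bases of each domain under H3K27ac peaks (left) and H3K4me1 peaks (right) at day 10 (horizontal, kb) and day 50 (vertical, kb), 1 point per domain, coloured by the age at which it was broad. The solid line marks equal values and the dotted lines a ratio of 1.5. Domains broad at 1 age include some well above the minimum width, such as that of 3391 bp at dpr12. For H3K27ac, 26 and 24 domains lie beyond the dotted lines.

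Domains broad at a single age were mostly still acetylated at the other age, as shorter peaks. The 197 day 10 only domains had a median of 83.8% of their bases under H3K27ac at day 50, and 157 of them held 2 or more peaks then, 39 held 1 and 1 held none. Their widest day 50 peak had a median of 700 bp, and it was at least 800 bp in 59. The 157 day 50 only domains gave much the same picture at day 10: a median of 83.8% covered, 113 with 2 or more peaks, 43 with 1 and 1 with none, and a median widest peak of 691 bp. Fewer than 50% of the bases were covered at the other age in 6 of the day 10 only and 13 of the day 50 only domains.

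The largest differences in covered bases stood at domains of 1011 to 1638 bp, apart from dpr12. At dpr12, which encodes an immunoglobulin-domain protein of synaptic partner recognition, a domain of 3391 bp (2R:5846909-5850299) was 1 peak at day 10 and 4 peaks with 1389 bp at day 50. Its authors' fold was 1.92 at day 10 and 2.15 at day 50. X11Lbeta, an adaptor related to the mammalian Mint proteins, had 1091 bp at day 10 and none at day 50, CG12769 had 1098 and 161 bp, and a domain within Glut4EF 1034 and 300 bp. A domain between coding genes at 2R:6856258-6857363 had 1106 and 474 bp. One at CG18675 and tipE, a sodium channel auxiliary subunit, had 1132 and 515 bp.

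On the day 50 side, a domain at CG42322 and CG31199 (3R:20742417-20743480) had no H3K27ac peak at day 10 and 1064 bp at day 50, with a fold of 1.52. Hydr1 had 769 and 1638 bp. Pgd, an enzyme of the pentose phosphate pathway, had 445 and 1261 bp. A domain shared by ND-15, a subunit of respiratory complex I, and Gs1, a glutamine synthetase, had 708 and 1510 bp. The kinesin-like gene nod had 258 and 1011 bp, and a domain at cup, CG34310 and Spn27A had 497 and 1236 bp. All 6 of these domains had a gene end inside them or within 220 bp, while of the 6 domains with the largest day 10 excess only the one at CG18675 and tipE had a gene end that near.

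Place relative to gene ends separated the 2 ages more widely than the totals did. A protein-coding gene end (start or end of the gene body, which the gene table does not tell apart) lay within 500 bp of 286 domains, or 40.7% (37.0 to 44.4%), and of 29.0% of the narrower H3K27ac regions. A gene end lay inside 76 domains (10.8%, against 2.26%), and the median distance to the nearest one was 998 bp, against 2319 bp. Longer regions reach gene ends more often, and the order turned when the distance was taken from the midpoint. Then 48 domains (6.83%, 5.08 to 8.95%) had a gene end within 500 bp of it, against 24.6% of narrower regions. A gene end that near the midpoint of a domain has to lie inside it, while for narrower regions it can lie beside them. The 2 shares are therefore not alike, and the part of width in their order was not tested. Domains lay beside gene ends more often than across them, and 193 (27.5%) ended within 100 bp of one or held it. Narrower regions did so too: 8748 had a gene end within 500 bp and 681 had one inside. Domains that were broad at day 50 only had a gene end within 500 bp in 81 of 157 cases (51.6%, 43.5 to 59.6%), those broad at both days in 148 of 349 (42.4%, 37.2 to 47.8%), and those broad at day 10 only in 57 of 197 (28.9%, 22.7 to 35.8%).

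The covered bases followed the same division, but they are not separate evidence of it. A domain broad at a single age is bounded by its wide peak of that age and is wholly covered then. The 197 day 10 only domains therefore could not have more bases at day 50, nor the 157 day 50 only domains fewer. The 286 domains at gene ends had 367.2 kb under H3K27ac at day 10 and 383.3 kb at day 50, with more bases at day 50 in 170 and fewer in 114. The 417 domains farther from gene ends had 562.5 kb at day 10 and 537.5 kb at day 50, with more at day 50 in 145 and fewer in 270. The narrower H3K27ac regions were divided in the same way, so it was not particular to the domains. Those at gene ends had 2772 kb at day 10 and 3229 kb at day 50 (5986 with more, 2687 with fewer), and the others 5480 and 4782 kb (8723 with more, 12559 with fewer). H3K4me1 did not share the division, and both groups of domains had more members with fewer bases at day 50: 168 fewer and 100 more at gene ends, and 242 fewer and 154 more elsewhere.

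**Figure D2:**
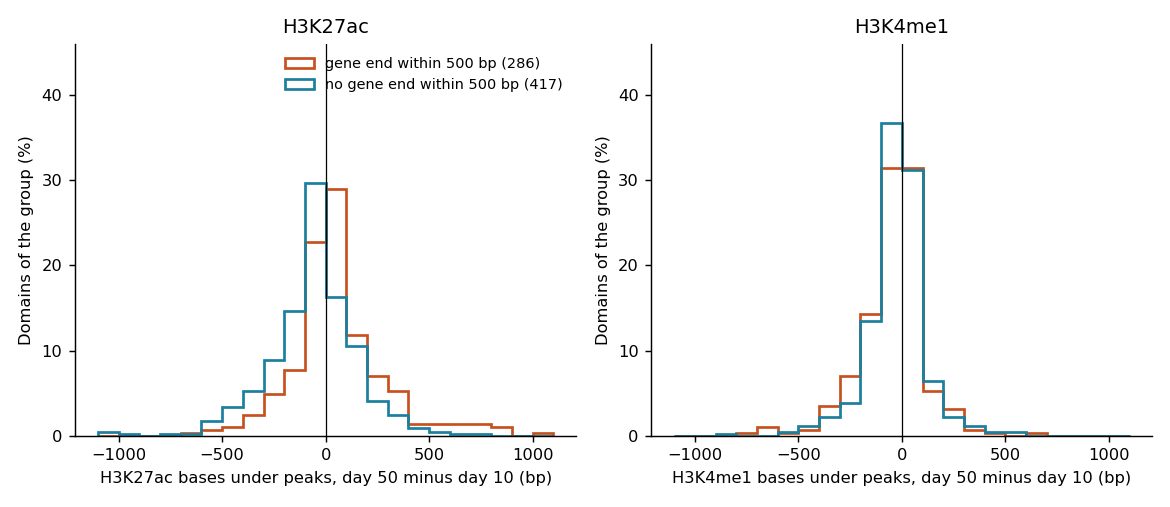
Difference in bases under H3K27ac peaks (left) and H3K4me1 peaks (right), day 50 minus day 10, for the 286 domains with a gene end within 500 bp and the 417 without, as the percent of each group per bin; values beyond the axis are in the outermost bins and the bin right of 0 includes equal values. For H3K27ac the domains at gene ends lean to the right and the others to the left, and for H3K4me1 both lean to the left.

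H3K4me1 covered most of the bases of most domains. It lay over 641.7 kb at day 10 (65.1%) and 617.1 kb at day 50 (62.6%), against 56.6 and 52.1% of the bases of the narrower H3K27ac regions. In a window of 1000 bp at the midpoint the shares were 67.9 and 65.6% in domains and 34.4 and 31.3% at narrower regions. That window lies within the domains but reaches past most narrower regions, whose median length was 289 bp. In the 100 bp just before the midpoint, the shares at day 10 were 68.1% in domains and 57.0% at narrower regions. At day 50 they were 66.3 and 52.3%. A domain without any H3K4me1 was rare: 22 of 703 at day 10 (3.13%) and 31 at day 50 (4.41%), against 31.5 and 36.4% of narrower regions, which are shorter and so have less room for a peak. Only 13 domains were wholly under H3K4me1 at both days, and the median domain was 68.2% covered at day 10 and 66.8% at day 50. Within domains the outer 250 bp at each edge were covered to 59.9 and 57.3%, and the middle 250 bp to 68.6 and 66.3%.

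**Figure D3:**
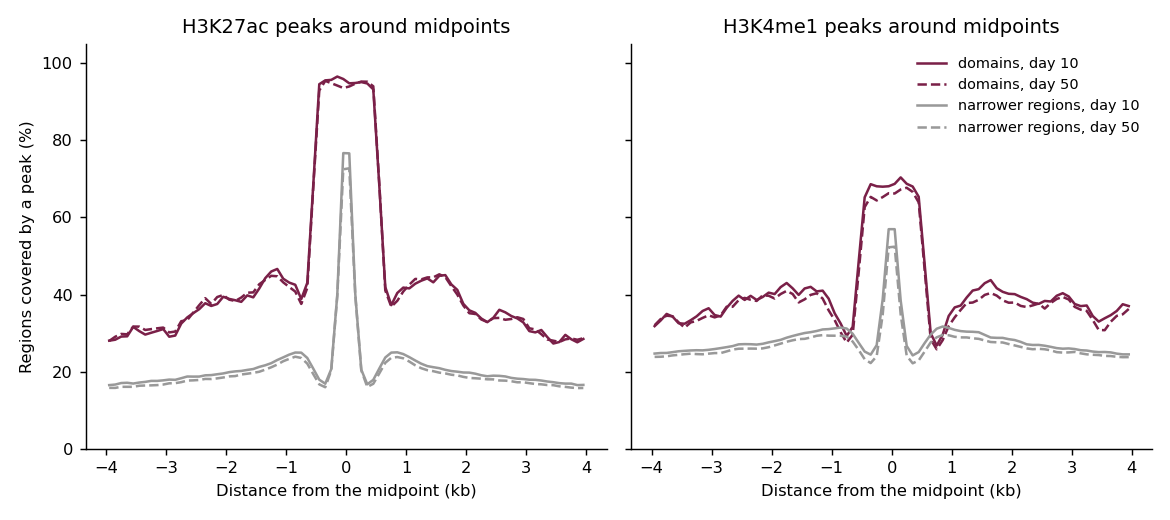
Percent of regions covered by an H3K27ac peak (left) or an H3K4me1 peak (right) at each distance from the region's midpoint (kb), for domains and for narrower H3K27ac regions at day 10 (solid) and day 50 (dashed). H3K27ac is high across the domains because they were chosen by it; H3K4me1 forms a plateau of similar width, with dips about 0.75 kb from the midpoint where it falls below the narrower regions, while H3K27ac stays above them at every distance shown.

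H3K4me1 was lower at day 50 in more domains than it was higher: 410 had fewer bases, 254 more and 39 the same. At least 1.5 times fewer bases at day 50 were found in 51 of the 684 domains with the mark (7.46%) and at least 1.5 times more in 24 (3.51%). Over all merged H3K27ac regions with H3K4me1 the shares were 18.7% and 9.11%, so the direction was that of all such regions. H3K4me1 covered fewer bases at day 50 whichever age the acetylation was broad at, with the smallest fall in domains broad at day 50 only. In the domains broad at day 10 only it covered 150.6 kb at day 10 and 144.0 kb at day 50, in those broad at day 50 only 124.8 and 123.2 kb, and in those broad at both days 366.3 and 349.8 kb.

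The domains named here had the largest differences in H3K4me1. None was among those named for the largest H3K27ac differences, but both lists are short and nothing is read from that. A domain of kek1, which encodes a leucine-rich repeat inhibitor of the EGF receptor, had 1212 bp under H3K4me1 at day 10 and 320 bp at day 50, with 2308 and 2038 bp under H3K27ac. The zinc finger gene hang had 2680 and 1970 bp, scyl, an inhibitor of TOR signalling related to mammalian REDD1, 836 and 193 bp, and cpx, whose product complexin clamps synaptic vesicle fusion, 1950 and 1314 bp. In the other direction a domain at dah had 1036 and 1683 bp, a second domain of Glut4EF 791 and 1332 bp, Agpat1 399 and 918 bp, and Reph 301 and 734 bp.

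At the extremes of H3K4me1, 13 domains were wholly covered at both days and 19 had none at either day. The longest 6 of the wholly covered lay in the overlapping genes Mur2B and br, in feo, mars, NaCP60E and ken, and outside coding genes at 2R:11364268-11365641. The longest 6 without H3K4me1 lay at Ih, a cation channel opened by hyperpolarisation, CG43901, the fatty acid elongase gene Baldspot, ps, CG3703 and bin3. A gene end lay within 500 bp of 12 of the 19 domains without the mark (63.2%) and of 2 of the 13 wholly covered ones (15.4%), beside 40.7% of all domains. More widely, H3K4me1 covered 58.0 and 54.8% of the bases of domains at gene ends and 69.9 and 67.8% of those elsewhere. At narrower regions the shares were 40.0 and 38.1% at gene ends and 65.2 and 59.3% elsewhere. Peaks of H3K4me1 that were themselves at least 1000 bp wide overlapped 248 domains (35.3%), against 7.80% of narrower regions. Narrower regions are shorter (median 289 bp, against 1208 bp) and any shared base counts as overlap, so these shares are not at equal length. Of 3039 broad H3K4me1 domains, 249 (8.19%) overlapped a broad H3K27ac domain.

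Some domains lay in runs. Another domain lay within 1 kb of 141 domains and within 10 kb of 332, and the median distance to the nearest was 13039 bp. Joining domains less than 10 kb apart gave 485 runs, of which 114 held at least 2 domains, 49 at least 3 and 13 at least 5. The remaining runs were single domains. These counts are a description, without the same count over narrower regions beside them. The richest run had 14 domains over 47.7 kb at tara (3R:16207975-16255683), with 23.5 kb under H3K27ac at day 10 and 22.6 kb at day 50, and 18.8 and 19.1 kb under H3K4me1. The next had 7 domains over 20.1 kb at 3R:10077094-10097231, outside the coding genes of the table, with 14.8 and 14.2 kb under H3K27ac and less H3K4me1, 6.97 and 6.98 kb. Runs of 7 also lay in ps, in Eip74EF, an ETS-domain factor induced by ecdysone, and across lola and psq, which both encode BTB-domain transcription factors.

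**Figure D4:**
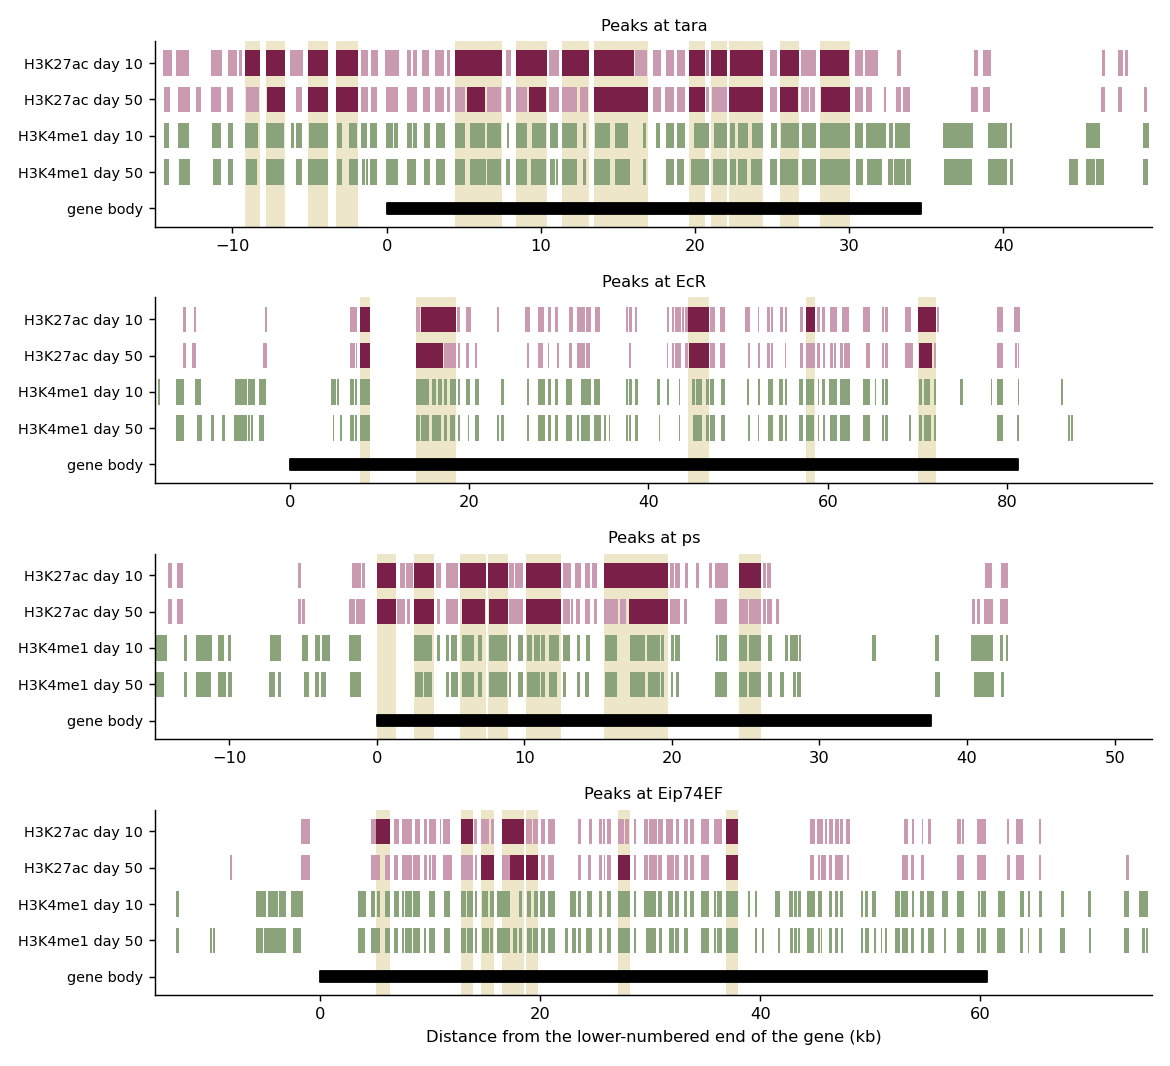
Peaks of H3K27ac (dark where at least 1000 bp wide, light where narrower) and H3K4me1 (green) at day 10 and day 50 around tara, EcR, ps and Eip74EF, by distance from the lower-numbered end of the gene (kb); shaded columns are domains and the black bar is the gene body. Several domains that are 1 dark peak at one age are 2 or more light peaks at the other, and the domain at the lower-numbered end of ps has no H3K4me1 at either age.

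In all, 542 of 13922 protein-coding genes of the table (3.89%) overlapped a domain with their body, while 7921 (56.9%) had an H3K27ac peak. At least 2 domains lay in 108 genes, at least 3 in 41 and at least 5 in 11. Glut4EF and CG46467, which overlap and share all of them, held 9, tara also 9, and ps and Eip74EF 7 each. The 5 domains of EcR had 10950 bp under H3K27ac at day 10 and 10322 bp at day 50. Those of cpx had 8891 and 9251 bp, of the RNA-binding gene Syp 7463 and 7751 bp, of Atpalpha, the sodium pump, 6926 and 6484 bp, of the microtubule-binding gene futsch 6801 and 5890 bp, and of gpp, the H3K79 methyltransferase, 5514 and 5339 bp. A domain within 500 bp of the gene's own end was found at 288 of the 542 genes (53.1%).

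The share of genes with a domain was higher in longer genes. Genes with a domain had a median length of 10.8 kb, and those without 2.07 kb. Of genes under 2 kb, 0.614% had a domain, against 2.57% at 2 to 5 kb, 7.38% at 5 to 10 kb, 14.1% at 10 to 20 kb, 14.9% at 20 to 50 kb and 16.0% of longer ones. The counts for gene groups that follow are descriptions to be read beside 3.89% of all coding genes and beside these lengths. Of all 542 genes with a domain, 260 (48.0%) had more H3K27ac bases in their domains at day 50 and 272 (50.2%) fewer. As H3K27ac width chose the domains, nothing is read from the members' counts by direction.

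Ecdysone and juvenile hormone response genes had a domain at 9 of 19 members (47.4%), with a median gene length of 39.9 kb. Besides EcR and Eip74EF these were the nuclear receptor genes Eip75B and Hr3, the zinc finger genes Blimp-1, Kr-h1 and br, and Eip63E and Eip93F. Their 22 domains had 33.0 kb under H3K27ac at day 10 and 32.8 kb at day 50, with more bases at day 50 in 5 genes and fewer in 4. The 7 domains of Eip74EF had 8205 and 8087 bp under H3K27ac, and 6532 and 7169 bp under H3K4me1. Eip75B had 3242 and 3185 bp of H3K27ac in 2 domains and Blimp-1 3125 and 3206 bp.

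Neuronal genes gave a mixed picture by class, but on few genes and with intervals that overlapped. These were 10.1 to 39.2% for synapse and excitability genes and 8.97 to 43.6% for RNA-binding genes. For surface recognition genes the interval was 2.14 to 18.5%, and for axon guidance genes 0.791 to 21.4%. Of the synapse and excitability list, 8 of 36 genes had a domain (22.2%, median length 29.8 kb): cpx, futsch, the active zone genes Rim and brp, elav, CASK, Rab3 and dlg1. Of these, 7 had fewer H3K27ac bases in their domains at day 50 and cpx had more. At elav, whose RNA-binding product is the usual neuron marker, the values were 1581 and 1333 bp. Neuronal RNA-binding proteins had 6 of 26 genes with a domain (23.1%, median length 49.6 kb): ps, Syp, mub, msi, orb2 and Rbfox1. These domains had 30.4 kb under H3K27ac at day 10 and 28.5 kb at day 50. The domains of ps had 13889 and 13175 bp, those of mub 5333 and 4652 bp. At a minimum width of 800, 1500 and 2000 bp, 15, 3 and 2 synapse genes had a domain, and 10 and 2 RNA-binding genes at 800 and 2000 bp. A -log10 q of 20 left 3 genes in each of the 2 lists. Surface recognition genes (median 36.1 kb) had a domain at 4 of 52 (dpr12, dpr4, Nrg and Dscam4), and axon guidance genes at 2 of 31 (sif and Abl). An H3K27ac peak of any width lay in 41 of 52 surface recognition and 27 of 31 axon guidance genes. It lay in 34 of 36 synapse and 26 of 26 RNA-binding genes.

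Clock and stress genes also held domains. The circadian list had 6 of 23 (26.1%, median length 9.06 kb): vri and cwo, repressors of the clock, the kinase gene sgg, the PER translation factor Atx2, the neuropeptide receptor gene Pdfr, and Fbxl4. H3K27ac in these domains was 10.1 kb at day 10 and 11.5 kb at day 50, with more bases at day 50 in 5 of the 6 genes. At cwo the domain had 568 and 1203 bp, and at vri 2979 and 3210 bp. The stress regulator list had 6 of 25 (24.0%), of which Tet, a dioxygenase, is not a stress regulator in the usual sense. The others were kay (3488 and 3318 bp), puc (2193 and 2164 bp), REPTOR, a transcription factor held back by TOR (2208 and 1867 bp), Sesn and Gadd45. Chromatin modifiers had 8 of 46 (17.4%), among them Tet again (5117 and 4875 bp), the chromatin remodelling gene osa (3969 and 4153 bp), Trl, which encodes GAGA factor (3763 and 3723 bp), and the demethylase gene Kdm2 (3194 and 3015 bp).

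Other lists had 1 to 3 members with a domain, apart from neuronal and eye transcription factors with 6 of 43 (lola, jim, chinmo and br among them). Fat body genes had 3 of 19, Lpin (2307 and 2516 bp), Desat1 (2133 and 2051 bp) and FASN1 (1043 and 1035 bp), all enzymes of lipid synthesis. Insulin and TOR genes had 3 of 30, InR, Akt and S6k. Innate immunity had 2 of 41, the receptor gene Tl and the NF-kappaB gene Rel, whose domain had 863 and 1172 bp. Heat shock genes had DnaJ-1 (1299 and 1680 bp) and stv (1015 and 1171 bp) of 23. Phototransduction had Ggamma30A and Cds of 31, and glia had moody, a blood-brain barrier receptor (671 and 1361 bp), and nkd of 21. Rab GTPases had Rab3 and Rab27 of 31, and glucose transporters and carriers nebu of 16. The list of signalling receptors and ligands had spi, InR and Stat92E of 42, though Stat92E is a transcription factor and neither of these. Muscle had the transcription factor gene Mef2 of 20, and testis and germline the RNA-binding gene bol of 19.

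Families of short genes had almost none. Cytosolic ribosomal protein genes had 1 of 92 (RpL22, with 1201 and 1397 bp under H3K27ac) though 82 of them had an H3K27ac peak, and their median length was 1.32 kb. Mitochondrial ribosomal protein genes had 0 of 73, with an upper limit of 4.93%, though 72 had a peak. Oxidative phosphorylation genes had 1 of 88. This was ND-15, whose gene body of 41305 bp is far above the list's median of 1.10 kb. P450 genes had 0 of 83 and chemosensory receptor genes 0 of 179, of which 13 had any H3K27ac peak.

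**Figure D5:**
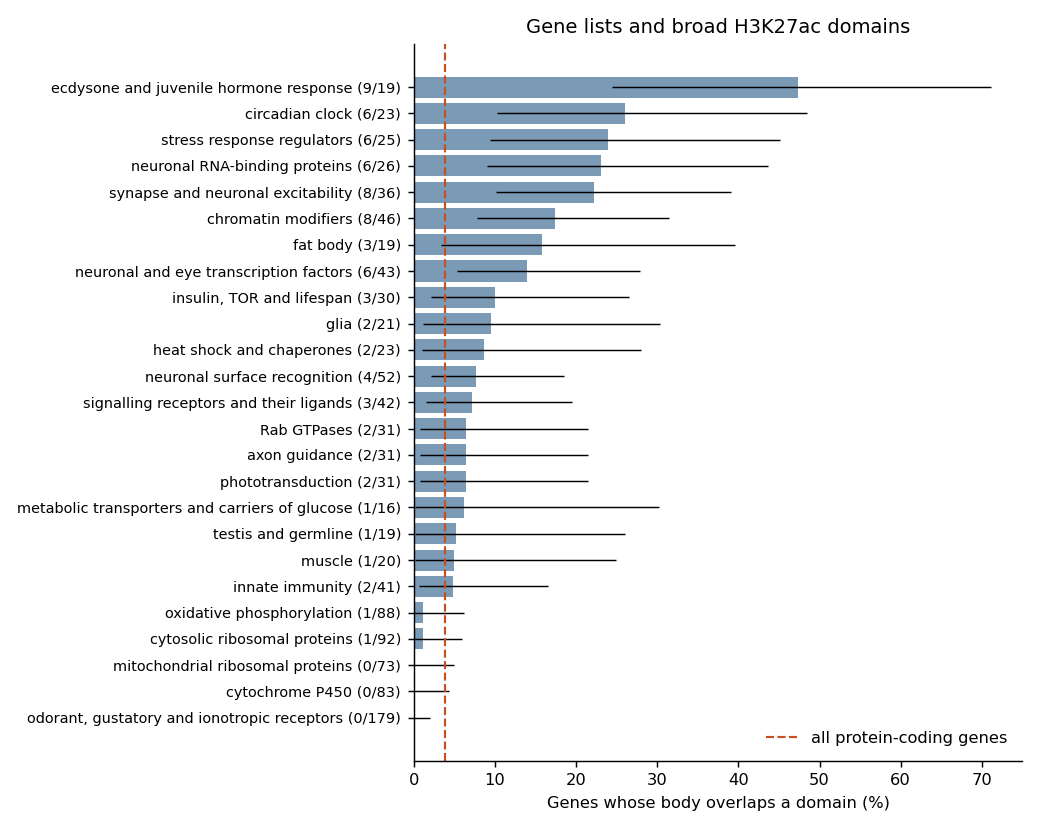
Percent of the genes of each list whose body overlaps a broad H3K27ac domain (horizontal bars), with exact 95% intervals for counting error and the number with a domain over the number in the table beside each name. The dashed line marks 3.89% of all protein-coding genes; hormone response genes (47.4%) stand at the top, the 5 lists at the bottom are families of short genes, and the long surface recognition and axon guidance genes stand at 7.69 and 6.45%.

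Some genes had domains of one age only. All domains were broad at day 10 only in 126 genes, 10 of which had at least 2, and at day 50 only in 122, 3 of which had at least 2. The 10 were psq, sbb, dpr12, CG17841, CG3638, Atet, CG4297, TP53INP, REPTOR and Mid1. The 3 were Pka-C1, the catalytic subunit of protein kinase A (1924 and 2377 bp under H3K27ac in its domains), the acyl-CoA synthetase gene Acsl (1863 and 2320 bp) and the homeobox gene NK7.1 (1345 and 1510 bp). Of the 10, dpr12 had 4773 and 2239 bp, Mid1 2200 and 1428 bp, sbb 3246 and 2688 bp and psq 3383 and 3073 bp.

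Coding genes were not touched by 51 domains, 37 of which lay within 5 kb of one and 19 over a non-coding gene of the table. Non-coding genes with a domain included 40 of 1959 long non-coding RNA genes and 4 of 260 microRNA genes, mir-14, mir-966, mir-967 and mir-2496. The domain over mir-14, a microRNA known in flies for restraining cell death and for insulin and ecdysone signalling, overlapped no coding gene. After the domain over lncRNA:CR45054, the longest outside coding genes were 2R:9549155-9551435 (2273 and 2260 bp under H3K27ac), X:1397518-1399753 (2109 and 2236 bp), 2L:12003103-12005216 (1980 and 2114 bp) and 3R:10077094-10079172 (2079 and 2009 bp).

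By chromosome, 3R carried 29.2% of the domains (25.8 to 32.7%) and 24.0% of the narrower regions, and 2R 153 (21.8%, 18.8 to 25.0%, beside 18.4%). Chromosome 2L carried 95 (13.5%, 11.1 to 16.3%, beside 17.9%), 3L 114 (16.2%, 13.6 to 19.2%, beside 20.6%), X 135 (19.2%, 16.4 to 22.3%, beside 18.6%) and the small chromosome 4 a single one. The X of males, whose genes are acetylated at another residue, lysine 16 of histone H4, for dosage compensation, had 31 domains broad at day 10 only and 38 at day 50 only. The autosomes had 166 and 119. Domains of the X had more H3K27ac bases at day 50 in 74 cases and fewer in 61, those of autosomes more in 241 and fewer in 323. A gene end lay within 500 bp of 50.4% of X domains and 38.4% of autosomal ones, and the part of this in the difference by age was not tested. Among domains away from gene ends, 18 of 67 on X and 122 of 350 on autosomes were broad at day 10 only, and 17 and 59 at day 50 only.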

How the data were processed

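H3K27ac and H3K4me1 were profiled by ChIP sequencing in heads of male flies at day 10 and day 50, with 2 ChIP and 2 input samples per mark and age. Per the submitters' processing notes, the tools were MACS2 2.1.1, STAR 2.5.3a, deepTools, Trim Galore and FastQC, with build BDGP6. Their settings are not given in the sources. The authors deposited 4 peak lists, each from pooled replicates. Peak positions, the fold (ratio) over background and the −log10 q of each peak are the authors' deposited values, and fold and q served only to rank or filter within a list. A q threshold admits more and wider peaks in a deeper library, and nuclease digestion favours accessible chromatin.

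Wide peaks (at least 1000 bp) were merged where they shared at least 1 base, and bases under each list were counted per domain. Narrower regions are merged H3K27ac peaks without a wide one. Peaks on other sequences (7 per H3K27ac list) were left out, and none was broad. Gene bodies came from a RefSeq table of Release 6, without strand, exons or sequence, so starts and ends were not told apart, and motifs were not searched. Of the gene lists' symbols, 14 were not matched in that table. The interval code was tested on simulated peaks. Analyses used Python 3.11.15, pandas 2.3.3, numpy 2.4.6 and scipy 1.17.1.

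Members, gene lists and naming rules were chosen with earlier results of these data known. Named were the longest domains, those with the largest excess of each mark at each age, the highest and lowest H3K4me1 shares, the highest folds, genes with most domains, domains outside genes, up to 4 members per list and peaks nearest the minimum width. Other genes named as members of a short list were chosen after their values were seen. The division by gene end within 500 bp was likewise made after seeing the data.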

Additional observations from a re-analysis of the deposited data

How the results depend on the processing

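No paired analysis was possible because each deposited list pools both replicates, so no replicate number is left in the values, and for the same reason no replicate could be left out. Recomputing 23 results under 18 settings gave 255 values, of which 86 left the range set by counting error or by a factor of 1.5 and 1 more turned its direction: 55.5% of domains had more H3K27ac at day 50 at a -log10 q of 20, against 44.8%. Of 80 repeats of an ordered pair of values, 5 turned the order. A -log10 q of 20 did so for the domains broad at a single day (84 at day 10, 133 at day 50) and for the H3K27ac coverage. The 26 higher and 24 lower H3K27ac ratios turned at 2000 bp, on joining peaks and at a ratio of 1.2. For both H3K4me1 pairs and both gene-end pairs the order was kept in every setting run; at 2000 bp, domains at gene ends had more H3K27ac at day 50 in exactly 50% of cases. Domains with more H3K27ac at day 50 were 48.7 and 33.9% at 1500 and 2000 bp. Ecdysone and juvenile hormone genes with a domain fell from 9 to 3 at 2000 bp.

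The number of domains followed the minimum width: 1554, 150 and 59 at 800, 1500 and 2000 bp, with 751, 76 and 25 broad at both days, 421, 40 and 23 at day 10 only and 382, 34 and 11 at day 50 only. The genes with a domain numbered 1074, 136 and 53. H3K27ac was at least 1.5 times higher at day 50 in 101, 4 and 0 domains and lower in 82, 2 and 1, and H3K4me1 higher in 68, 4 and 1 and lower in 150, 9 and 4. A gene end was near 36.7 and 33.9% of domains at 1500 and 2000 bp, and domains elsewhere with more H3K27ac at day 50 were 43.2 and 25.6%. At 1500 bp, 22.5% of day 10 only and 41.2% of day 50 only domains were at a gene end. At 2000 bp, H3K27ac covered 97.1% at day 10, and 28.8% of domains had more H3K4me1 at day 50.

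Joining peaks within 100 bp gave 1068 domains, 549 at both days and 239 at day 50 only, with H3K27ac at least 1.5 times higher in 71 and lower in 78 and H3K4me1 lower in 79. Requiring a -log10 q of 20 for H3K27ac gave 357 domains, 140 at both days, 84 at day 10 only and 133 at day 50 only, in 301 genes. H3K27ac then covered 69.8 and 84.5% at days 10 and 50 and H3K4me1 60.5 and 58.7%, and the ratio counts were 125 and 62 for H3K27ac and 11 and 22 for H3K4me1. At gene ends 67.5% and elsewhere 45.7% had more H3K27ac at day 50, and 44.8% of domains were at a gene end. The cause was not tested. A -log10 q of 5 put 44 domains at 1.5 times more H3K27ac, and for H3K4me1 38 at 1.5 times more.

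Widening the bounds by 500 bp gave 67.2 and 66.4% under H3K27ac and 49.0 and 46.8% under H3K4me1. A ratio of 2 left 13 higher and 6 lower for H3K27ac and 7 and 31 for H3K4me1, and a ratio of 1.2 gave 85 and 98, and 51 and 110. A gene end lay within 100 bp of 27.5% of domains (15.7% of day 10 only, 35.7% of day 50 only) and within 1000 bp of 50.1% (39.6% of day 10 only). Read depth, which could set peak widths, is unknown. Equal numbers of peaks, merging from 50% overlap and extended bounds moved no result this far.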
